A study of Arabidopsis thaliana with 30 samples.

Results

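Sml-D is an F6 line of Arabidopsis thaliana bred from a cross of the accessions C24 and Landsberg erecta (Ler), and it was compared here with the mean of the reciprocal F1 hybrids of the same cross, C24XLer and LerXC24. The 3 Sml-D libraries and the 6 F1 libraries (3 of each hybrid) are 9 of the 30 libraries of the series, and they were chosen by the line that the labels give. The parents C24 and Ler, also with 3 libraries each, are used below to place the values. All lines were untreated 15-day seedlings of which the above-ground tissue was taken, grown in 1 experiment on MS medium with sucrose under long days. The 3 Sml-D libraries are labelled as F6 siblings of 1 line, so the comparison describes that line and not F6 lines in general. The F1 libraries are named biological replicates, and how many plants went into a library is not stated. Plant size and the hour of harvest are not stated either. The study asks, by its title, how auxin genes under PIF4 bear on hybrid vigor.

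An F1 hybrid of inbred accessions carries 1 allele of each parent at every locus, while a line selfed for several generations is fixed for the C24 or the Ler allele at most loci. Hybrids of C24 and Ler are known for growing larger than either parent. The PIF transcription factors join light and temperature to growth and act largely through auxin synthesis and response. Flowering in Arabidopsis is held back by the MADS-box repressor FLC and its relatives, and promoted by FT, SOC1 and FUL.

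Sml-D libraries held 45231116 to 48658690 reads and F1 libraries 45856620 to 52535852, per the deposited alignment summaries, and 29268 genes had enough counts to be tested. Log2 levels of the 9 libraries correlated at 0.964 to 0.985 between Sml-D and the F1, at 0.977 to 0.995 between the hybrids and at 0.986 to 0.995 within a line. The first principal component of the 9 libraries held 51.2% of their variance, with the Sml-D libraries between -49.4 and -38.9 and the F1 libraries between -4.81 and 52.6. A clock index, the mean log2 level of 8 evening genes minus that of 9 morning genes, was -2.0, -1.97 and -1.86 in Sml-D libraries 1, 2 and 3. It was -1.46, -1.72 and -1.33 in C24XLer libraries A, B and C, and -1.19, -0.53 and -0.16 in LerXC24 libraries A, B and C. Sml-D thus lay below all F1 libraries, and LerXC24 libraries B and C stood apart above the rest. Counts below are therefore given also with this index as a covariate and without LerXC24 libraries B and C, and the part of harvest time in the results was not tested. The index is made from levels in these same libraries, and Sml-D does not overlap the F1 in it. A fit with the index can thus remove part of a line difference too. A call lost in that fit does not tell clock phase from line. The labels give Sml-D the same 3 barcodes as C24, so those could not share a sequencing pool, and any pool difference between Sml-D and the F1 cannot be told apart from the line.

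Sml-D and the F1 differed across much of the transcriptome, mostly by small amounts. Of the tested list members, 9 of 11 sulfur-deficiency, 12 of 18 flavonoid and 6 of 9 floral organ genes rose in Sml-D. In turn, 7 of 14 PIF target genes, 9 of 25 abscisic acid, dehydration and cold genes and 3 of 8 sugar-starvation genes fell. Of the abscisic acid, dehydration and cold genes 11 fell and 0 rose against C24XLer, but 7 fell and 9 rose against LerXC24. With the clock index as a covariate, edgeR called 0 sulfur-deficiency and 0 flavonoid genes (3 and 1 at an unadjusted p under 0.05). It then called 2 floral organ genes higher, and 3 PIF target, 8 abscisic acid, dehydration and cold and 1 sugar-starvation genes lower. By edgeR's quasi-likelihood test, 4017 genes (13.7% of those tested) were higher and 4373 (14.9%) lower in Sml-D at an adjusted p under 0.05, 28.7% in all. The median absolute log2 difference of the called genes was 0.48, and 450 rose and 737 fell at least 2-fold. For 5601 of the called genes, no Sml-D library overlapped any F1 library, which calling itself favours. The matching count over all tested genes is not given here. With the clock index as a covariate 741 genes were higher and 1205 lower, and without LerXC24 libraries B and C 2028 were higher and 2439 lower. Of 125 called genes chosen for naming, 46 kept their call and direction under every alternative tried, and 83 did so under every alternative other than the clock index. Levels are given as CPM (counts scaled by library size) and differences as log2 of Sml-D over the F1 mean with their standard error. A share of called list members is to be read against the 28.7% over all genes, and a list median against the median of 0.00 over all genes.

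**Figure D1:**
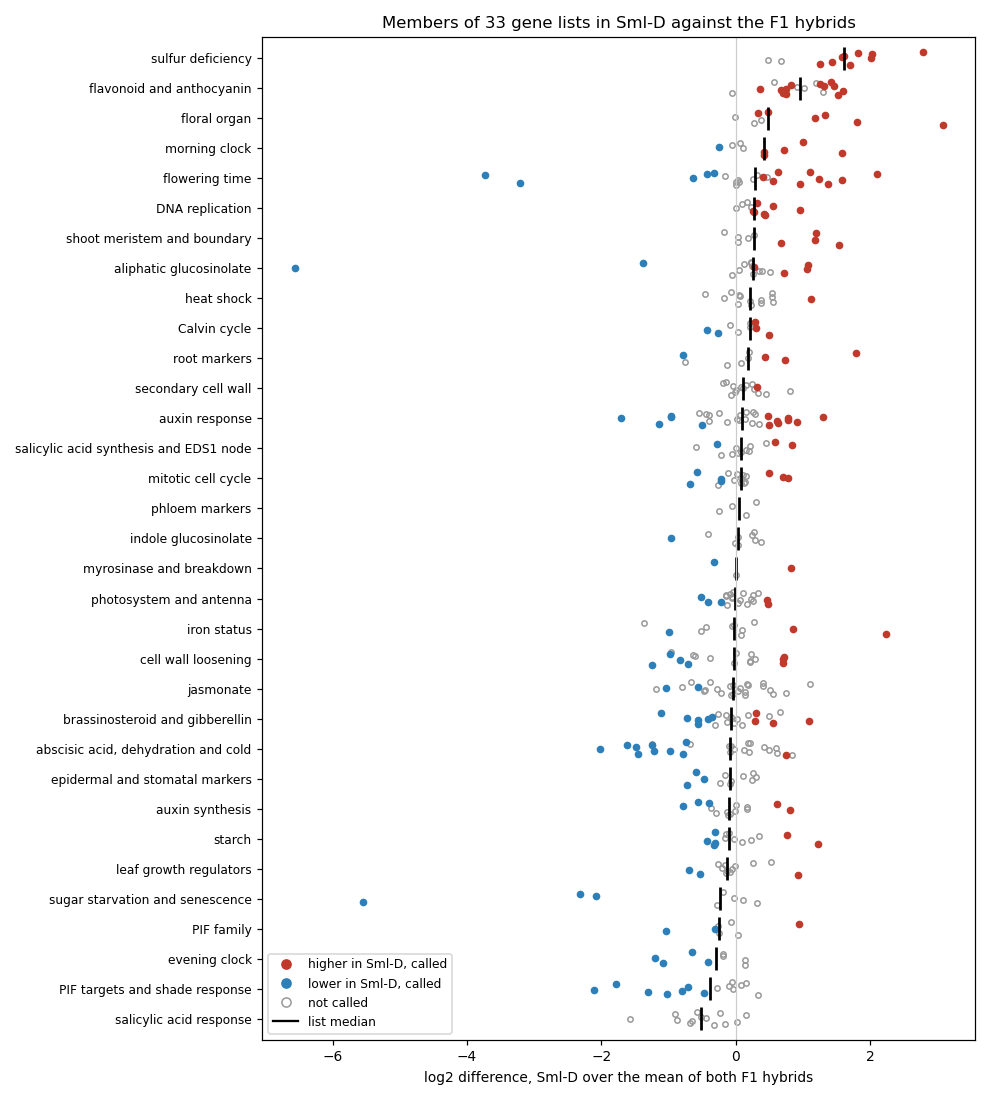
Each point is 1 tested member of 1 of 33 gene lists, placed by its log2 difference between Sml-D and the mean of both F1 hybrids; red points are called higher and blue points called lower in Sml-D at an adjusted p under 0.05, open points are not called, and black bars are list medians. The sulfur-deficiency list has the highest median, 1.62, and the salicylic acid response list the lowest, -0.51, with 0 of its 13 members called.

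Some of the largest falls in Sml-D, among called genes that overlapped no other counted gene, are named next. These genes were expressed in 1 parent and near 0 in the other, with Sml-D at the low parent and the F1 in between. AT1G35115, which has no described function in the annotation (chr1:12842158-12845455, TAIR10.1), had 0 counts in all 3 Sml-D libraries, against 13.2, 16.45 and 17.9 CPM in C24XLer and 16.2, 17.78 and 17.1 CPM in LerXC24. Against a floor of 3 counts in each library, it was at least 286-fold lower in Sml-D. C24 averaged 26.4 ± 1.51 CPM and Ler 0.0321 ± 0.0115 CPM (SD, n = 3 each). AT3G61010, a ferritin-like protein in the annotation, had 0.158, 0.0956 and 0.0375 CPM in Sml-D and 23.1 to 30.3 CPM in the F1 (log2 -8.06 ± 0.99, adjusted p = 2.1e-06). In this pair and in AT1G66100, a plant thionin (-6.84 ± 0.85), AT2G15042, a leucine-rich repeat protein (-5.80 ± 0.25), and AT2G05642, an OB-fold protein (-5.74 ± 0.18), C24 was the high parent and Ler the low one.

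Other large falls had the parents the other way round. AT3G44070, a glycosyl hydrolase, stood at 0.246, 0.153 and 0.206 CPM in Sml-D and at 9.78 to 17.4 CPM in the F1 (-6.18 ± 0.28), with C24 at 0.232 ± 0.0781 CPM and Ler at 21.2 ± 1.92 CPM (SD, n = 3 each). AT5G27345 (-5.36 ± 0.26) and AT1G23960 (-4.51 ± 0.15) likewise were low in Sml-D and in C24 and high in Ler. All Sml-D libraries lay below all F1 libraries for each of these genes. Counts were made against a genome of another accession, and how far reads of a diverged C24 or Ler allele were lost from these genes was not tested.

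The parents shared no library with the Sml-D comparison, so their difference could be set against it. Both comparisons came from the same fit, in which the spread of each gene was estimated over all libraries, so their calls are not independent. How far genes with a small spread or a high level were called more easily in both comparisons was not tested. C24 and Ler differed at 7555 genes (25.8%), and 3362 of these were also called between Sml-D and the F1, which is 40.1% of the Sml-D calls and 44.5% of the parental ones. Of 3902 genes higher in C24, 586 were higher and 1205 lower in Sml-D. Of 3653 genes higher in Ler, 917 were higher and 654 lower in Sml-D. Called genes thus made up 45.9% and 43.0% of these classes, against 23.2% of the 21713 genes that were not called between the parents, where 2514 rose and 2514 fell. Large falls in Sml-D occurred with a difference between the parents in either direction, as the plot of the parental difference against the Sml-D difference shows.

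**Figure D2:**
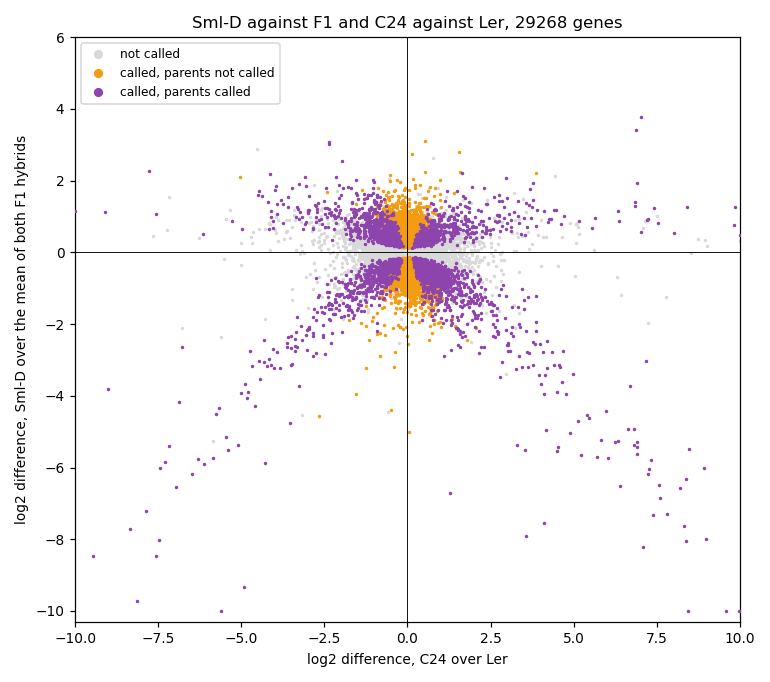
Each dot is 1 of the 29268 tested genes, with the log2 difference of C24 over Ler on the horizontal axis and that of Sml-D over the mean of both F1 hybrids on the vertical axis; 8 genes beyond 10 in either are drawn at the edge. Genes called in both comparisons (purple) form arms that run down on both sides, while 5028 genes called in Sml-D and not between the parents (orange) lie near the vertical axis.

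For each of 655 genes on the 5 chromosomes that differed between the parents by a log2 of at least 2, the mean level of Sml-D was placed on a scale on which Ler is 0 and C24 is 1. Sml-D lay nearer C24 at 325 of them and nearer Ler at 330, so that 49.6% were nearer C24 (95% Wilson interval 45.8% to 53.4%, which covers counting error only and treats neighbouring genes as independent). Within 0.25 of a parent, Sml-D was at the C24 level for 260 genes and at the Ler level for 274, with 93 between the windows. The F1 mean was at C24 for 121, at Ler for 75 and between for 450. Sml-D thus sat at 1 or the other parental level at most of these genes, while the F1 sat between the parents. This placement is a description, since it uses the Sml-D values themselves.

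Genes on the same parental side lay next to each other in long stretches. The share nearer C24 was 29.9% on chromosome 1, 34.3% on chromosome 2, 65.5% on chromosome 3, 38.3% on chromosome 4 and 77.1% on chromosome 5. With the side of a gene set by the majority of 9 neighbours, the Ler stretch with most genes was chr1:11171225-25447622 (TAIR10.1), where 118 of 130 genes were nearer Ler. The C24 stretches with most genes were chr5:3173382-17182743, with 102 of 110 genes nearer C24, and chr3:6258060-16381434, with 76 of 87. On chromosome 3 the genes from chr3:16664611-23133298 were all nearer Ler, 22 of 22. On chromosome 4, 23 of 25 genes in chr4:414204-4310671 were nearer Ler and 25 of 29 in chr4:9500271-18518052 nearer C24. Some genes with large falls are among those from which these stretches were drawn. AT1G35115 and AT1G66100 lie in the Ler stretch of chromosome 1 at positions of -0.02 and -0.06, and AT3G44070 in the C24 stretch of chromosome 3 at 1.01. FLC begins the C24 stretch of chromosome 5 but lies nearer Ler, at 0.26. Of the 186 genes higher in C24 at which Sml-D was nearer Ler, 150 fell against the F1 and 1 rose, and of the 165 genes higher in Ler at which Sml-D was nearer C24, 117 fell and 1 rose. These directions are largely fixed by how the classes were made.

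**Figure D3:**
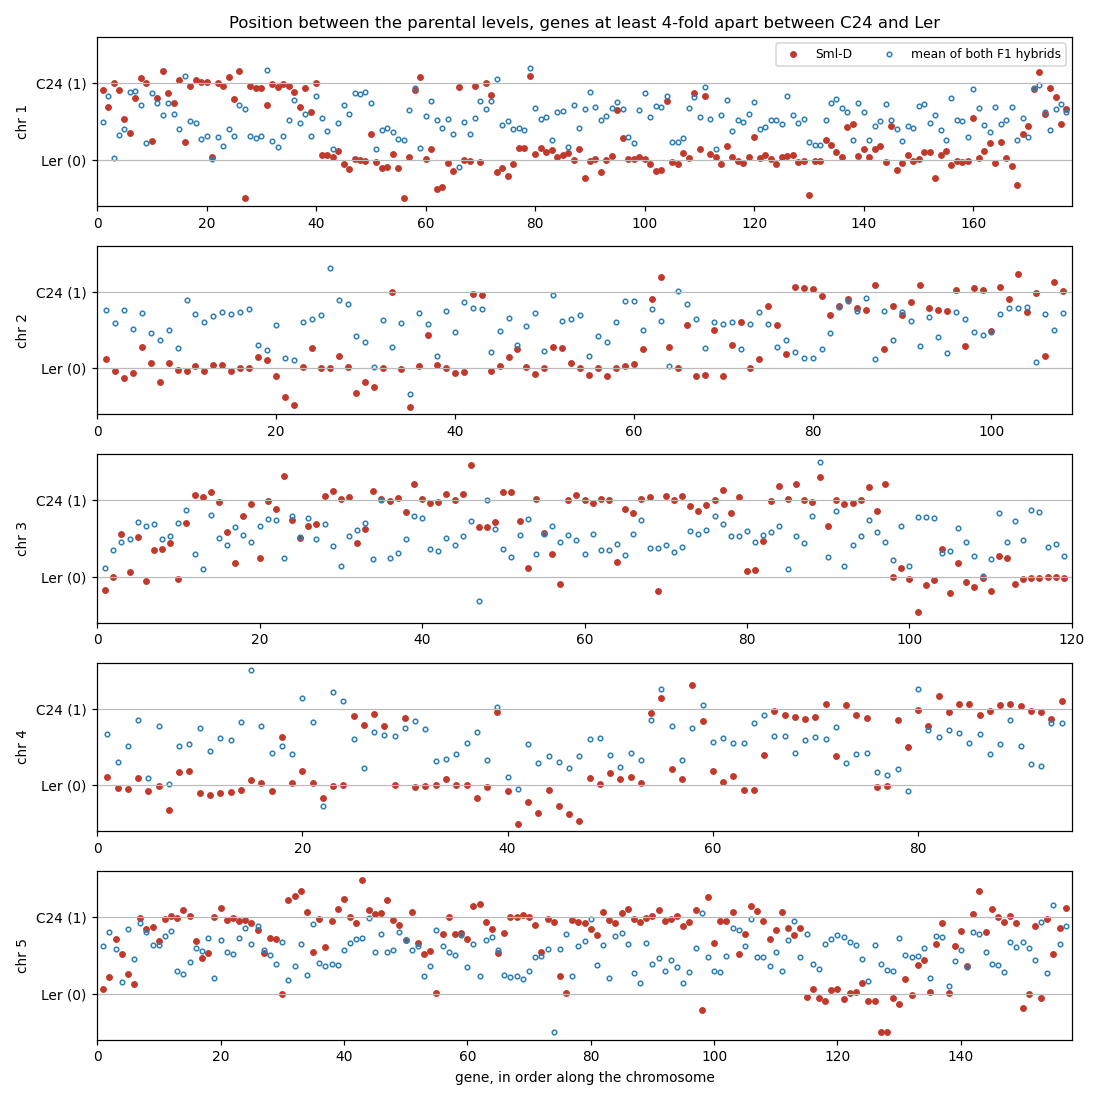
The 655 genes at least 4-fold apart between C24 and Ler are drawn in their order along each of the 5 chromosomes, with the position between the parental levels (0 is Ler, 1 is C24) of Sml-D in filled red and of the mean of both F1 hybrids in open blue; points beyond 0.5 outside the parents (6 of Sml-D, 3 of the F1) are drawn at the edge. Sml-D runs along one parental line for long stretches of genes and then switches to the other, while most F1 points lie between the lines.

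Flowering-time genes differed strongly, with the repressors FLC and FLM low and the promoters SOC1 and FUL high in Sml-D. Of 22 tested genes of this list 9 rose and 5 fell (median log2 0.28); with the clock index 7 rose and 4 fell, and without LerXC24 libraries B and C 8 rose and 5 fell. FLC (chr5:3173382-3179448) had 4.48, 2.62 and 4.01 CPM in Sml-D, against 44.6, 55.7 and 47.3 CPM in C24XLer and 47.5, 43.9 and 57.3 CPM in LerXC24 (-3.73 ± 0.17, adjusted p = 3.7e-14). The parents stood at 93.9 ± 6.79 CPM (C24) and 0.899 ± 0.171 CPM (Ler), both SD over 3 libraries, so the Sml-D mean lay between them on the side of Ler. FLM, a relative of FLC that delays flowering with SVP, had 1.2, 2.01 and 1.91 CPM in Sml-D and 14.4 to 17.2 CPM in the 6 F1 libraries (-3.21 ± 0.59, adjusted p = 0.00027). Both parents, at 2.87 ± 0.76 CPM in C24 and 6.75 ± 0.54 CPM in Ler, lay below all F1 libraries and above the Sml-D mean, and they were not called apart (adjusted p = 0.134).

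SOC1, which joins the flowering signals in the shoot tip, had 82.9, 62.4 and 79.0 CPM in Sml-D and 17.58 to 37.4 CPM in the F1 (1.59 ± 0.15, adjusted p = 3.4e-08). FUL, which acts beside it, had 10.6, 10.2 and 7.15 CPM in Sml-D and 1.59 to 3.31 CPM in the F1 (2.11 ± 0.16, adjusted p = 4.3e-10). Both sets of libraries were fully apart, and Ler again was the high parent, with 104 CPM for SOC1 against 13.3 CPM in C24. FT, the mobile flowering signal, rose by 1.38 on the log2 scale but was low, at 1.26, 0.268 and 0.863 CPM in Sml-D and 0.175 to 0.424 CPM in the F1, and its groups overlapped. SVP, the partner of FLM, was at 78.7 to 89.1 CPM in Sml-D and 69.8 to 87.3 CPM in the F1 and was not called. The FLC relatives MAF2 and MAF3 fell by 0.43 and 0.32, while MAF4 and MAF5 rose by 1.11 and 0.63; these are neighbouring copies among which reads may be split.

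Of 9 tested genes that shape floral organs, most of them at low levels, 6 rose and 0 fell in Sml-D (median 0.49); 2 rose with the clock index and 4 without LerXC24 libraries B and C. SEP3, a MADS-box factor of floral organs, had 29.4, 20.4 and 20.5 CPM in Sml-D, against 3.06, 2.17 and 3.65 CPM in C24XLer and 2.92, 2.61 and 2.19 CPM in LerXC24 (3.08 ± 0.20, adjusted p = 1.8e-11). Sml-D also stood above Ler, at 7.87 ± 0.94 CPM, and C24, at 1.54 ± 0.47 CPM. The meristem identity gene AP1 (1.81 ± 0.31), SEP1 (1.33 ± 0.19, overlapping another counted gene) and AP3 (1.19 ± 0.27) rose as well, each under 4 CPM in all 9 libraries, and the calls of AP1 and AP3 were lost with the clock index. The summed level of the list was 35.6 to 51.2 CPM in Sml-D and 13.7 to 16.7 CPM in the F1. In whole tissue, more cells of a kind and more RNA per cell cannot be told apart.

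Shoot meristem and boundary genes rose at 4 of 9 members and fell at 0 (median 0.27); with the clock index 0 were called by edgeR (2 at an unadjusted p under 0.05) and without LerXC24 libraries B and C 3 rose, and DESeq2 called 3. STM, which keeps the meristem undifferentiated, had 9.29, 10.7 and 6.90 CPM in Sml-D and 0.857 to 4.66 CPM in the F1 (1.54 ± 0.36, adjusted p = 0.0026). CUC3, which marks organ boundaries, rose by 1.18 ± 0.30, and KNAT2, a relative of STM, by 0.67 ± 0.16. KNAT1 rose by 1.19 ± 0.43, but its call was lost when any Sml-D library, LerXC24 library A or LerXC24 library C was left out, and without LerXC24 libraries B and C together.

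**Figure D4:**
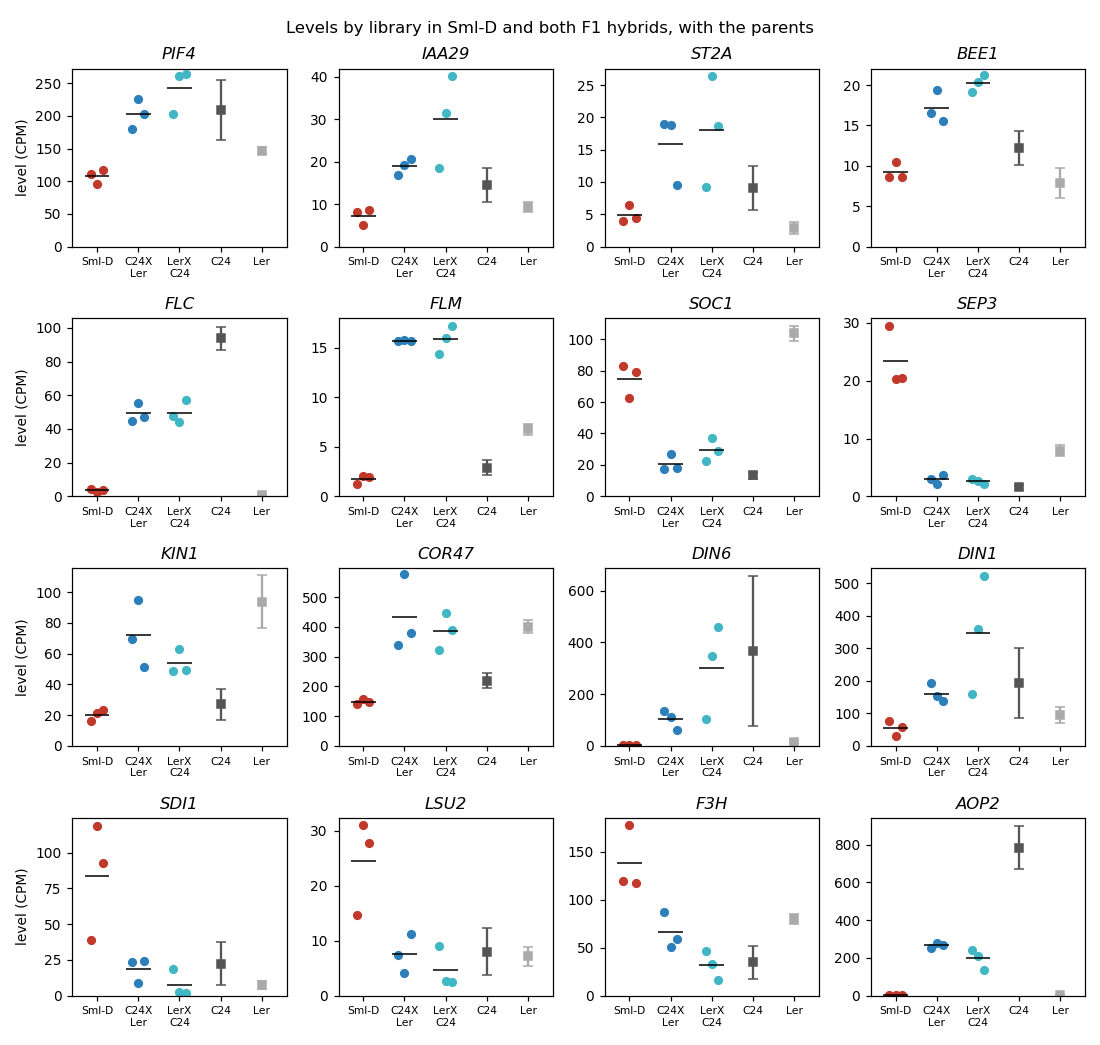
Levels in CPM, on linear axes from 0, of 16 genes in each Sml-D, C24XLer and LerXC24 library (points, with the line mean as a bar) and as mean ± SD of 3 libraries in C24 and Ler (squares). For FLC, FLM, SEP3, AOP2 and DIN6 the Sml-D libraries are far from all 6 F1 libraries, and for SDI1 Sml-D library 1, at 39.1 CPM, is the lowest of the line.

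The growth-promoting bHLH factor PIF4 and several of its known targets were lower in Sml-D. PIF4 (chr2:17886101-17889087) had 112, 95.4 and 118 CPM in Sml-D, against 180, 227 and 202 CPM in C24XLer and 203, 260 and 264 CPM in LerXC24 (-1.03 ± 0.12, adjusted p = 1.4e-06). All Sml-D libraries lay below all F1 libraries, and the Sml-D mean was also below those of C24, 209 ± 45.9 CPM, and Ler, 147 ± 5.79 CPM. PIF5, the closest relative of PIF4, fell by 0.31 ± 0.08 (adjusted p = 0.0053), and PIF8 rose by 0.95 ± 0.20, a call that was lost with the clock index. These were the 3 called of 7 PIF genes (median -0.26); with the clock index 2 fell, and without LerXC24 libraries B and C 1 rose and 2 fell. Of 14 PIF target and shade genes, 7 fell and 0 rose (median -0.38); with the clock index 3 fell, and without LerXC24 libraries B and C 5 fell and 1 rose.

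ST2A, a sulfotransferase that inactivates a jasmonate, had 3.94, 6.48 and 4.37 CPM in Sml-D and 9.26 to 26.3 CPM in the F1 (-1.78 ± 0.32, adjusted p = 0.00023). BEE1, a bHLH factor induced by brassinosteroid, had 8.57, 10.5 and 8.55 CPM in Sml-D and 15.6 to 21.3 CPM in the F1 (-1.02 ± 0.17, adjusted p = 7.7e-05), and it kept its call under every alternative. BEE3 (-1.31 ± 0.29) and PAR1, which restrains growth in shade (-2.10 ± 0.42), fell too. PAR1 moved with the hybrids: it had 5.34, 4.42 and 6.92 CPM in Sml-D, 9.20 to 14.6 CPM in C24XLer and 24.8, 52.1 and 60.5 CPM in LerXC24. Against C24XLer alone it was -1.17 and not called (adjusted p = 0.089). The calls of ST2A, BEE3 and PAR1 were lost with the clock index.

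Auxin genes changed in both directions. IAA29, an early auxin response gene and PIF target, had 8.12, 5.10 and 8.53 CPM in Sml-D and 16.9 to 40.1 CPM in the F1 (-1.71 ± 0.26, adjusted p = 3.5e-05). IAA19, another such repressor gene, went the other way, with 13.8, 15.7 and 14.2 CPM in Sml-D and 8.51 to 11.0 CPM in the F1 (0.61 ± 0.10, adjusted p = 5.0e-05). GH3.2, whose enzyme conjugates auxin to amino acids, rose by 1.3 ± 0.18, while the growth-associated SAUR63 fell by 1.14 ± 0.23 and SAUR9 by 0.97 ± 0.26, a call lost without Sml-D library 3. Of 28 auxin response genes 8 rose and 5 fell (median 0.10); 4 rose and 2 fell with the clock index, where the SAUR9 call was lost, and 6 rose and 3 fell without LerXC24 libraries B and C.

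Among 14 auxin synthesis genes 2 rose and 3 fell (median -0.09); with the clock index 1 rose and 0 fell, and without LerXC24 libraries B and C 2 rose and 0 fell. YUC8, a warmth-induced synthesis gene, was low, at 2.46, 1.89 and 1.91 CPM in Sml-D, 2.41 to 2.86 CPM in C24XLer and 2.85 to 6.64 CPM in LerXC24 (-0.79 ± 0.26, adjusted p = 0.027). Its call was lost without LerXC24 library B or C or Sml-D library 2 or 3. With the clock index its log2 difference was 0.14 and not called (adjusted p = 0.83 in edgeR's quasi-likelihood test). TAA1, which acts one step before the YUC enzymes, had 7.96, 8.03 and 8.35 CPM in Sml-D and 3.92 to 5.59 CPM in the F1 (0.81 ± 0.12, adjusted p = 4.5e-05), and YUC4 rose by 0.61 ± 0.14. YUC5 fell by 0.57 ± 0.15, a call lost without Sml-D library 2, without LerXC24 libraries B and C and with the clock index. The TAA1 call too was lost with the clock index (log2 0.54).

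Of 21 brassinosteroid and gibberellin genes 4 rose and 6 fell (median -0.06); with the clock index 3 rose and 1 fell, and without LerXC24 libraries B and C 5 rose and 3 fell. CPD, a brassinosteroid synthesis enzyme that overlaps another counted gene, had 94.5, 92.5 and 93.5 CPM in Sml-D and 143 to 337 CPM in the F1 (-1.11 ± 0.17, adjusted p = 2.8e-05). GA2OX1, which inactivates gibberellin, rose by 1.09 ± 0.23. The later brassinosteroid synthesis gene BR6OX2 (-0.73 ± 0.26) and the inactivating BAS1 (-0.57 ± 0.20) fell, but each call was lost without any of 6 single libraries, which for both include Sml-D libraries 1 and 3, C24XLer library C and LerXC24 library C. The calls of BR6OX2 and BAS1 were also lost without LerXC24 libraries B and C together, and those of all 4 genes with the clock index. Cell wall loosening genes rose at 3 and fell at 4 of 17 members (median -0.03), and edgeR called 0 with the clock index (1 at an unadjusted p under 0.05) and 0 without LerXC24 libraries B and C (4 unadjusted), where DESeq2 without these changes called 3 higher and 4 lower. Against C24XLer alone 0 members of this list rose and 0 fell (median 0.06), and against LerXC24 3 rose and 7 fell (median -0.33). Against the F1 mean, the wall-remodelling enzyme genes XTH4, XTH24 and XTH33 fell by 0.82, 0.97 and 1.25, and the expansin gene EXPA5 rose by 0.72. XTH33 averaged 4.81 CPM in Sml-D, 5.87 CPM in C24XLer and 22.3 CPM in LerXC24. For XTH4 the level was 144 to 155 CPM in Sml-D, 134 to 191 CPM in C24XLer and 242, 442 and 597 CPM in LerXC24, so that the fall lay against LerXC24, and against C24XLer it was -0.14 (adjusted p = 0.79). The calls of XTH33 (Sml-D library 1 or 2), XTH4 (Sml-D library 3), EXPA5 (Sml-D library 2) and XTH24 (any Sml-D library, C24XLer library A or C, or LerXC24 library C) were lost when the named libraries were left out in turn.

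Of 11 DNA replication genes 7 rose and 0 fell in Sml-D, by small amounts (median 0.28); 1 rose with the clock index and 1 without LerXC24 libraries B and C. PCNA2, the sliding clamp of replication, had 26.2, 23.2 and 26.5 CPM in Sml-D and 11.5 to 14.6 CPM in the F1 (0.96 ± 0.12, adjusted p = 3.7e-06), and overlaps another counted gene. TSO2, a ribonucleotide reductase subunit (0.56 ± 0.14, also overlapping), and MCM2, of the replicative helicase (0.42 ± 0.11), rose as well. PCNA1, a close copy of PCNA2, was called at 0.43 ± 0.15, and its call was lost without Sml-D library 1 or 3 and without library B or C of either hybrid. The calls of TSO2, MCM2 and PCNA1 were lost with the clock index and without LerXC24 libraries B and C together. Mitotic genes did not share a direction: 3 of 17 rose and 4 fell (median 0.08), or 1 and 0 with the clock index and 3 and 2 without LerXC24 libraries B and C, with the cyclin genes CYCB1;3 at 0.70 ± 0.13 and CYCB2;3 at -0.69 ± 0.11, the second of which lost its call with the clock index. Among 13 leaf growth regulators 1 rose and 2 fell (median -0.14): GRF3, which promotes leaf cell proliferation and overlaps another counted gene, at -0.70 ± 0.11, DA1, which limits organ size, at -0.53 ± 0.12, and KLU, which extends leaf growth, at 0.93 ± 0.32. The KLU call was lost without C24XLer library A, LerXC24 library C or Sml-D library 3. Without LerXC24 libraries B and C 0 of these growth regulators rose and 2 fell, and with the clock index edgeR called 0 (2 at an unadjusted p under 0.05), where DESeq2 without it called 1 higher and 2 lower.

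Morning clock genes rose at 5 and fell at 1 of 9 members in Sml-D (median 0.42), and evening genes rose at 0 and fell at 4 of 8 (median -0.30); these lists define the clock index. Of the morning genes 1 rose and 0 fell without LerXC24 libraries B and C, and 1 rose and 0 fell against C24XLer alone (median 0.18), with 5 rising and 1 falling against LerXC24 (median 0.50). Of the evening genes 3 fell without LerXC24 libraries B and C and 3 against C24XLer alone. With the clock index 1 evening gene fell, and edgeR called 0 morning genes (3 at an unadjusted p under 0.05, median -0.19), where DESeq2 without it called 5 higher and 1 lower. LUX, part of the evening complex that represses PIF4 and overlapping another counted gene, had 13.0, 14.8 and 13.0 CPM in Sml-D, against 21.4, 24.7 and 25.9 CPM in C24XLer and 28.3, 45.1 and 49.3 CPM in LerXC24 (-1.21 ± 0.17, adjusted p = 1.1e-05). FKF1, a blue-light receptor of the flowering pathway (-1.08 ± 0.20, overlapping), TOC1, a core evening repressor (-0.64 ± 0.11), and ELF3, a partner of LUX (-0.41 ± 0.10, overlapping), also fell. Among morning genes, PRR9 had 36.0, 32.3 and 24.5 CPM in Sml-D, 8.96 to 23.2 CPM in C24XLer and 3.47 to 10.6 CPM in LerXC24 (1.58 ± 0.39, adjusted p = 0.0040). LHY was called at 0.43 ± 0.09, LNK1, which overlaps another counted gene, at 1.01 ± 0.25, and RVE8 at 0.72 ± 0.23, all 3 expressed in the morning. Without LerXC24 libraries B and C the calls of PRR9 (adjusted p = 0.081), LNK1 (adjusted p = 0.066), RVE8 (adjusted p = 0.22) and ELF3 (adjusted p = 0.052) were lost in edgeR's quasi-likelihood test, and of the genes named here LUX alone kept its call with the clock index. The RVE8 call was also lost without Sml-D library 3.

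**Figure D5:**
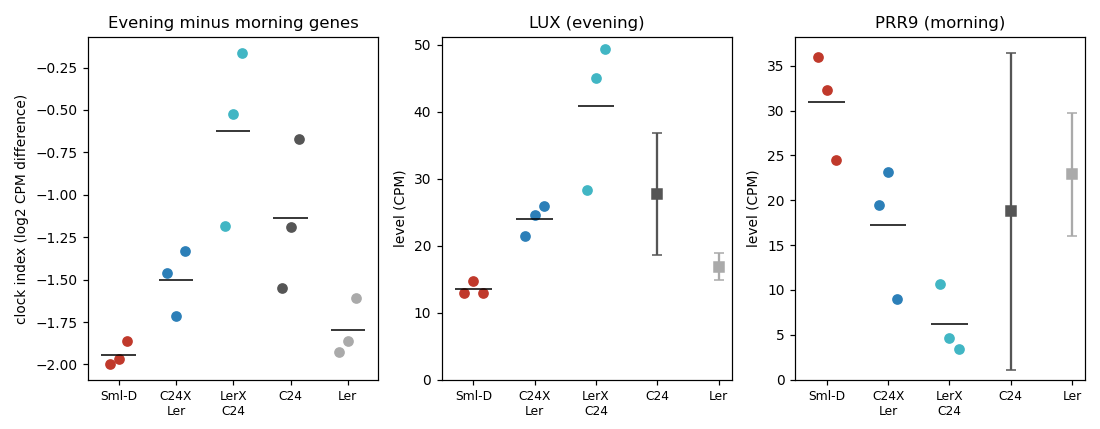
The left panel gives the clock index (mean log2 level of evening minus morning genes) and the others the level in CPM of LUX and PRR9, by library with the line mean as a bar (C24 and Ler as mean ± SD of 3 libraries in the 2 right panels). The Sml-D libraries, at -2.0 to -1.86, lie below all F1 libraries, and LerXC24 libraries B and C are the highest of the lines shown.

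The evening element AAATATCT, to which the morning factors CCA1 and LHY and the RVE factors are known to bind, was sought on both strands in the 250 bases before the annotated start of each gene. It was present in 5.80% of 4324 promoters of genes called lower and in 4.51% of 3990 promoters of genes called higher. All 28874 promoters of tested genes held it at 4.68%. The share was 8.51% in 717 promoters of genes that fell at least 2-fold and 4.76% in 441 of genes that rose at least 2-fold. The evening element was held by 5 of the 8 evening genes, 0 of the 9 morning genes and 6 of the 25 abscisic acid, dehydration and cold genes. The G-box CACGTG, a binding site of PIF and other bHLH factors, was in 6.04% of genes called lower and 7.29% of those called higher. Its share was 4.74% of genes that fell at least 2-fold, 7.03% of those that rose at least 2-fold and 6.28% of all. For the related CCA1 site AAAAATCT the shares were 6.87% (called lower), 6.54% (called higher), 4.88% (fell 2-fold), 6.35% (rose 2-fold) and 6.49% (all). For the W-box TTGAC, a site of WRKY factors, they were 43.2%, 44.1%, 43.9%, 40.1% and 44.7% in that order. These shares describe letters in a window, and the windows come from the Columbia reference genome (RefSeq, TAIR10.1) and not from C24 or Ler.

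Promoters of 3 evening genes and 2 cold genes that fell in Sml-D are shown because each holds the evening element, in capitals on either strand and read 5′ to 3′ toward the gene. They are LUX (chr3:17182792-17183041, plus strand), TOC1 (chr5:24674713-24674962, plus), FKF1 (chr1:25508389-25508638, plus), CBF1 (chr4:13022997-13023246, minus) and KIN1 (chr5:5209467-5209716, plus).
LUX: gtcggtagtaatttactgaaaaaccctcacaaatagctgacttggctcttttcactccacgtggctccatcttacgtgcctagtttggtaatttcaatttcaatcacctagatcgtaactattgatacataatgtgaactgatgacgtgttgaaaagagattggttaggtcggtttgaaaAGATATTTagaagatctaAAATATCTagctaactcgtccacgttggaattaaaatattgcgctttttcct
TOC1: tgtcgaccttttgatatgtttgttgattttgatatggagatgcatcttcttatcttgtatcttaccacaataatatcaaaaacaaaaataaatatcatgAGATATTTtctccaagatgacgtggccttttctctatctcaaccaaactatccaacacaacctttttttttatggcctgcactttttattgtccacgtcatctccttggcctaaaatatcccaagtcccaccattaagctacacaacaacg
FKF1: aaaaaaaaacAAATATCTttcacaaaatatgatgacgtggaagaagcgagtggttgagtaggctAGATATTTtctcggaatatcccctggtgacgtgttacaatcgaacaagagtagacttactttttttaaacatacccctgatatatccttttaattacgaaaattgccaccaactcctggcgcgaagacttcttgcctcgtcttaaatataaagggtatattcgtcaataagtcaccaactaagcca
CBF1: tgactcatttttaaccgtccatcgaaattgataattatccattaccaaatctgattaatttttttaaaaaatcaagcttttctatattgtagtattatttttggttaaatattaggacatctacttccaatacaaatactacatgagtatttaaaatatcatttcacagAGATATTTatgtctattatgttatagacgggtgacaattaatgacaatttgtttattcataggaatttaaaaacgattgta
KIN1: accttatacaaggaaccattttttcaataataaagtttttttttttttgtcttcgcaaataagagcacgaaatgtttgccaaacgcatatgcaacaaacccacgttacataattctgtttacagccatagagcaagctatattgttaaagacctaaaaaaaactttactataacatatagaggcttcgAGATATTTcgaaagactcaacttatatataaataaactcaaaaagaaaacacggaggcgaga
LUX and FKF1 hold 2 matches each and the other genes 1. The match of KIN1 begins 62 bases before the gene's start and that of CBF1 81 bases before it.

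Of 25 tested members of the abscisic acid, dehydration and cold list 9 fell, 1 rose and 15 were not called (median -0.09). Against C24XLer 11 fell and 0 rose (median -0.88), while against LerXC24 7 fell and 9 rose (median 0.51). For the mean of both, with the clock index 8 fell, and without LerXC24 libraries B and C 7 fell and 1 rose. COR47, a dehydrin, had 140, 159 and 148 CPM in Sml-D, against 340, 576 and 380 CPM in C24XLer and 321, 446 and 388 CPM in LerXC24 (-1.45 ± 0.17, adjusted p = 9.7e-07). KIN1, a small protein induced by cold, had 16.2, 21.2 and 23.4 CPM in Sml-D and 48.6 to 94.7 CPM in the F1 (-1.61 ± 0.25, adjusted p = 4.0e-05). In both genes no library of Sml-D reached the lowest F1 library, and the Sml-D mean was also below those of C24 (220 CPM for COR47, 27.1 CPM for KIN1) and Ler (400 and 93.8 CPM). KIN2, a close copy of KIN1 whose reads may be shared with it, fell by 1.24.

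LTI30, another dehydrin, had 2.79, 4.84 and 2.01 CPM in Sml-D and 6.62 to 25.7 CPM in the F1 (-2.02 ± 0.37, adjusted p = 0.00029). Its promoter (chr3:18940393-18940642, plus strand) is shown with the 3 matches to CCGAC, the core that CBF factors bind, in capitals.
LTI30: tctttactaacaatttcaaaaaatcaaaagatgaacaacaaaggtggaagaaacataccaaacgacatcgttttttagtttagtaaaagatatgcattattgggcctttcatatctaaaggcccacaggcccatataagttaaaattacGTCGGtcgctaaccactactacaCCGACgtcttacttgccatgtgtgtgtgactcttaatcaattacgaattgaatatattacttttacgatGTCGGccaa
This core was in 7 of the 25 promoters of the list and in 12.2% of all promoters, and in 13.0% of those of genes that fell and 12.5% of those that rose at least 2-fold. CBF1, which encodes such a factor, was low and uneven, at 0.861, 1.03 and 0.975 CPM in Sml-D, 6.86, 6.02 and 1.04 CPM in C24XLer and 0.955, 1.25 and 2.40 CPM in LerXC24. Its call at -1.48 ± 0.53 (adjusted p = 0.040) was lost when any Sml-D library, C24XLer library A or B, or LerXC24 library C was left out, with log2 differences of -1.54 to -1.24. It was also lost without LerXC24 libraries B and C together (-1.13) and with the clock index (-1.77). The other factors of this group, CBF2 and CBF3, were at -0.03 and 0.59 and not called. RD29A, a classic target, stood at 94.8, 170 and 122 CPM in Sml-D, 248 to 499 CPM in C24XLer and 58.5 to 155 CPM in LerXC24 and was not called (-0.67, adjusted p = 0.20).

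Of 8 tested genes of sugar starvation and senescence 3 fell and 0 rose in Sml-D, and those 3 fell at least 4-fold. DIN6, an asparagine synthetase that overlaps another counted gene, had 4.46, 2.43 and 4.46 CPM in Sml-D, against 136, 113 and 61.9 CPM in C24XLer and 104, 346 and 459 CPM in LerXC24 (-5.55 ± 0.63, adjusted p = 6.4e-07). C24 stood at 366 ± 290 CPM and Ler at 16.1 ± 5.4 CPM (SD, n = 3 each), so this gene varied widely within C24 and LerXC24. DIN1, a rhodanese-domain protein, had 77.6, 31.9 and 58.2 CPM in Sml-D and 137 to 523 CPM in the F1 (-2.08 ± 0.37, adjusted p = 0.00020), with no call between the parents. DIN10, a raffinose synthase that overlaps another gene, had 44.8 to 83.4 CPM in Sml-D and 103 to 1095 CPM in the F1 (-2.32 ± 0.51). The list median was -0.23; 1 fell with the clock index, where the calls of DIN1 and DIN10 were lost, and 3 fell without LerXC24 libraries B and C. DYL1, a dormancy-associated protein, likewise had 46.4, 39.9 and 54.5 CPM in Sml-D and 114 to 446 CPM in the F1 (-2.04 ± 0.31, adjusted p = 3.9e-05).

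Starch genes moved both ways, 2 of 13 rising and 4 falling (median -0.10); with the clock index 0 rose and 2 fell, and without LerXC24 libraries B and C 1 rose and 4 fell. The breakdown genes PHS1 (-0.43 ± 0.06, overlapping another gene) and SEX1 (-0.33 ± 0.06) fell, each with no overlap of libraries, and the granule-bound synthase GBSS1 rose by 1.22 ± 0.23. BAM3, a chloroplast beta-amylase that overlaps another gene, rose by 0.76 ± 0.27, a call lost without any Sml-D library, C24XLer library C, or LerXC24 library B or C, and without these last 2 together. GPT2, which carries glucose 6-phosphate into plastids and responds to sugar, had 30.0, 70.4 and 26.4 CPM in Sml-D and 3.36 to 23.0 CPM in the F1 (2.16 ± 0.43, adjusted p = 0.00060), and its call and that of GBSS1 were lost with the clock index. The sugar-starvation list summed to 168 to 247 CPM in Sml-D and 459 to 2177 CPM in the F1.

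Sulfur-deficiency genes had the highest list median, 1.62, with 9 of 11 members rising and 0 falling. They are the genes that plants raise when sulfate runs short, and they cut glucosinolate synthesis and speed sulfate assimilation. SDI1 (chr5:19805437-19807853), a repressor of glucosinolate synthesis, had 39.1, 118.5 and 92.8 CPM in Sml-D, against 23.48, 8.94 and 24.4 CPM in C24XLer and 18.8, 2.51 and 1.75 CPM in LerXC24 (2.79 ± 0.55, adjusted p = 0.00058). LSU1 had 17.4, 35.1 and 31.9 CPM in Sml-D and 1.91 to 12.7 CPM in the F1 (2.01 ± 0.37), and its close relative LSU2 had 14.6, 30.9 and 27.7 CPM in Sml-D and 2.47 to 11.2 CPM in the F1 (2.03 ± 0.37). For these 3 genes all Sml-D libraries lay above all F1 libraries, with Sml-D library 1 the lowest of its line. GGCT2;1, which recycles glutathione, had 27.5, 99.8 and 86.0 CPM in Sml-D and 10.5 to 32.0 CPM in the F1 (1.82 ± 0.30), so that Sml-D library 1 fell within the F1 range. The sulfate-reducing enzymes APR1, APR2 and APR3 rose by 1.58, 1.43 and 1.61, and all 3 overlap other counted genes. C24 and Ler averaged 22.4 and 7.67 CPM for SDI1, below every Sml-D library.

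The rise held against each hybrid, with 6 of 11 members called higher against C24XLer (median 1.18) and 9 against LerXC24 (median 2.09). Without LerXC24 libraries B and C 6 rose, and with the clock index 0 were called by edgeR (3 at an unadjusted p under 0.05), with a median of 0.66; DESeq2 without the index called 9. Other genes with large rises were AT2G27420, a cysteine proteinase by annotation, with 52.2, 38.5 and 38.1 CPM in Sml-D and 1.65 to 10.4 CPM in the F1 (3.11 ± 0.37, adjusted p = 1.6e-06), and AMT1;2, an ammonium transporter, with 54.1 to 77.1 CPM in Sml-D and 7.93 to 26.7 CPM in the F1 (2.00 ± 0.25). Both kept their calls in every alternative. AT2G15020, of no described function (2.73 ± 0.51), BBX18, a B-box factor (1.97 ± 0.38), and SQP1, an oxidoreductase by annotation (1.79 ± 0.28), lost theirs with the clock index. AT4G21650, a subtilase, rose by 1.94 ± 0.17 and differed between the parents, with 67.3 CPM in C24 and 4.96 CPM in Ler.

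Flavonoid and anthocyanin genes rose at 12 of 18 members and fell at 0 (median 0.97). F3H, an early enzyme of the pathway that overlaps another gene, had 120, 177 and 117 CPM in Sml-D, against 87.0, 50.9 and 59.4 CPM in C24XLer and 46.1, 32.5 and 16.5 CPM in LerXC24 (1.6 ± 0.29, adjusted p = 0.00028). FLS1, which makes flavonols, had 32.4, 44.8 and 21.4 CPM in Sml-D and 5.85 to 21.1 CPM in the F1 (1.46 ± 0.29, adjusted p = 0.00056). The groups were apart in both, narrowly for FLS1. PAP1, a MYB activator of anthocyanin synthesis, had 12.5, 24.8 and 16.4 CPM in Sml-D, 7.85 to 15.2 CPM in C24XLer and 1.26 to 6.62 CPM in LerXC24 (1.52 ± 0.38), and UGT79B1, an anthocyanin glycosyltransferase, rose by 1.42 ± 0.45, a call lost without Sml-D library 2. Against C24XLer 4 members rose and against LerXC24 17 did, with 0 falling in either. With the clock index edgeR called 0 (1 at an unadjusted p under 0.05, median 0.21) where DESeq2 without it called 12, and without LerXC24 libraries B and C 4 rose, the calls of PAP1 and UGT79B1 being lost.

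Glucosinolates are sulfur-rich defence compounds whose side chains differ between accessions by which AOP gene is active. AOP2, which makes alkenyl forms (chr4:1351688-1354096), had 2.65, 2.54 and 2.06 CPM in Sml-D, against 253, 280 and 268 CPM in C24XLer and 244, 211 and 138 CPM in LerXC24 (-6.57 ± 0.22, adjusted p = 2.9e-17). Its neighbour AOP3, which makes hydroxyalkyl forms, had 271, 287 and 349 CPM in Sml-D and 58.3 to 260 CPM in the F1 (1.07 ± 0.19, adjusted p = 0.00019). Sml-D thus had the pattern of Ler, with 2.69 CPM of AOP2 and 218 CPM of AOP3, where C24 had 784 and 1.15 CPM. The 2 genes are similar copies, so some reads may be shared. MAM3, which lengthens side chains, fell by 1.38 ± 0.16, and the regulator MYB29 was called at 1.07 ± 0.33, a call lost without Sml-D library 1 or 2 and without LerXC24 libraries B and C. Of 16 aliphatic glucosinolate genes 4 rose and 2 fell (median 0.25). Against C24XLer 0 rose and 2 fell (median -0.07), and against LerXC24 8 rose and 2 fell (median 0.61). With the clock index 0 rose and 3 fell (median -0.32), the AOP3 call being lost, and without LerXC24 libraries B and C 1 rose and 2 fell. Among 9 indole glucosinolate genes, which had a median of 0.03, CYP79B3, which starts the pathway, was the 1 called (-0.96 ± 0.36), and that call was lost when any Sml-D library, C24XLer library A, or LerXC24 library A or B was left out, with a log2 of -0.55 without C24XLer library A. In that list edgeR called 0 with the clock index (1 at an unadjusted p under 0.05) and 0 without LerXC24 libraries B and C (1 unadjusted), DESeq2 called 1, and the medians were -0.37 against C24XLer and 0.69 against LerXC24. The myrosinase gene TGG2 had 1885, 1845 and 1713 CPM in Sml-D and 822 to 1163 CPM in the F1 (0.83 ± 0.12), with C24 at 2166 and Ler at 11.7 CPM. TGG1, its relative, fell by 0.33 ± 0.10, a call lost without Sml-D library 2 or 3, and these were the called members of 3 tested. Without LerXC24 libraries B and C 1 of them rose and 1 fell, and with the clock index 1 rose and 0 fell.

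Defence hormone genes showed few calls. Of 13 salicylic acid response genes 0 were called by edgeR's quasi-likelihood test, 0 by DESeq2 and 0 at an unadjusted p under 0.05 (median -0.51), and edgeR likewise called 0 (0 unadjusted) with the clock index and without LerXC24 libraries B and C. PR1, the standard marker of that response, had 0.334, 2.06 and 2.89 CPM in Sml-D and 1.73 to 11.2 CPM in the F1, with overlapping groups (-1.57 ± 1.19, adjusted p = 0.35). ICS1, which makes salicylic acid, had 18.5 to 23.0 CPM in Sml-D and 17.2 to 22.6 CPM in the F1 (0.08 ± 0.12, adjusted p = 0.66). Among 13 genes of salicylic acid synthesis and the EDS1 node 2 rose and 1 fell (median 0.08): PBS3 (0.83 ± 0.18) and EPS1 (0.59 ± 0.11), which act after ICS1, and SAG101 (-0.27 ± 0.09), an EDS1 partner whose call was lost without any Sml-D library, C24XLer library A or LerXC24 library C. In that list 2 rose and 0 fell without LerXC24 libraries B and C, and edgeR called 0 with the clock index (1 at an unadjusted p under 0.05), where DESeq2 without it called 2 higher and 1 lower. Jasmonate genes fell at 2 and rose at 0 of 26 (median -0.04), JAZ3, a repressor of the pathway, by 1.04 ± 0.15 with all libraries apart, and AOC2, a synthesis enzyme, by 0.56 ± 0.20, a call lost without Sml-D library 1 or 3, C24XLer library A or C, or LerXC24 library A (log2 -0.30 without Sml-D library 1). Under the clock index 1 fell, the AOC2 call being lost, and without LerXC24 libraries B and C 2 fell; DESeq2 called 4 lower. Against C24XLer 0 jasmonate genes rose and 5 fell (median -0.51), and against LerXC24 3 rose and 1 fell (median 0.35). Of 14 heat shock genes 1 rose, HSP22 (1.12 ± 0.35), whose call was lost without Sml-D library 2. Of these edgeR called 0 with the clock index (1 at an unadjusted p under 0.05) and 0 without LerXC24 libraries B and C (0 unadjusted), and DESeq2 called 1.

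Iron status genes rose at 2 and fell at 1 of 11 (median -0.02); edgeR called 0 with the clock index (0 at an unadjusted p under 0.05) and 0 without LerXC24 libraries B and C (1 unadjusted), and DESeq2 called 2 higher and 1 lower. The peptide gene IMA1 had 4.85, 23.4 and 5.12 CPM in Sml-D and 0.403 to 12 CPM in the F1, and its difference of 2.24 ± 0.75 became 1.09 and was not called without Sml-D library 2. The call was also lost without C24XLer library A or LerXC24 library B or C. PYE, a bHLH factor of iron shortage, was high in the same library, at 24.4 CPM, with 10.05 CPM in Sml-D library 1 and 9.55 CPM in Sml-D library 3, and its difference of 0.86 became 0.28 without it. That call was also lost without any F1 library. The ferritin gene FER4, which overlaps another gene, fell by 0.99 ± 0.37, a call lost without any Sml-D library, C24XLer library A, or LerXC24 library B or C. Secondary cell wall genes were called at 1 of 15 (median 0.10), FLA11, which overlaps another gene, at 0.32 ± 0.12, a call lost without Sml-D library 1 or 3, C24XLer library A or LerXC24 library C. Here edgeR called 0 with the clock index (1 at an unadjusted p under 0.05) and 0 without LerXC24 libraries B and C (1 unadjusted), and DESeq2 called 1.

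Photosystem and antenna genes rose at 2 and fell at 3 of 20 (median -0.00), or 0 and 1 with the clock index and 0 and 2 without LerXC24 libraries B and C, and summed to 83090 to 86370 CPM in Sml-D and 68300 to 99690 CPM in the F1. Calvin cycle genes rose at 3 and fell at 2 of 9 (median 0.21), or 0 and 2 with the clock index and 0 and 1 without LerXC24 libraries B and C. The main small subunit gene of Rubisco, RBCS1A, fell by 0.43 ± 0.10 while its close copy RBCS1B was called at 0.28 ± 0.10 (lost without any Sml-D library, C24XLer library C, or LerXC24 library B or C), and reads may be shared between such copies. The photosystem I genes PSAD1 (-0.52 ± 0.09) and PSAF (-0.41 ± 0.14) fell and the antenna genes LHCB6 (0.49 ± 0.13, overlapping) and LHCB2.1 (0.47 ± 0.15) rose; the calls of PSAF and LHCB2.1 were lost without Sml-D library 2, and that of PSAF also without Sml-D library 1 or 3, C24XLer library A or LerXC24 library C. The calls of RBCS1B, PSAF, LHCB6 and LHCB2.1 were lost with the clock index and without LerXC24 libraries B and C together.

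Root markers, which aerial tissue should largely lack, rose at 3 and fell at 1 of 9 (median 0.19). For these markers edgeR called 0 with the clock index (0 at an unadjusted p under 0.05), without LerXC24 libraries B and C 0 rose and 1 fell, and DESeq2 called 2 higher and 1 lower. They summed to 108 to 173 CPM in Sml-D and 80.7 to 199.9 CPM in the F1. The member with the largest log2 difference was the iron transporter gene IRT1, at a low level. It had 3.06, 0.363 and 0.469 CPM in Sml-D and 0.203 to 0.572 CPM in the F1. Its log2 difference of 1.79 became 0.14 without Sml-D library 1. That call was also lost without any C24XLer library or LerXC24 library A or B. PRP3, a root hair gene, fell by 0.78 ± 0.18, a call lost with the clock index. RHD6 and WOX5 were called at 0.73 ± 0.27 and 0.44 ± 0.17, at under 1 and under 3 CPM, and both calls were lost without Sml-D library 1 or 2 and without library B or C of either hybrid, that of WOX5 also without LerXC24 library A. Both were lost with the F1 as 1 group, and DESeq2 did not call RHD6 (log2 0.74, adjusted p = 0.0525). Epidermal and stomatal markers fell at 3 and rose at 0 of 11 (median -0.09), with 2 falling under the clock index and 3 without LerXC24 libraries B and C, namely SPCH, which starts the stomatal lineage (-0.60 ± 0.13), FAMA, which ends it (-0.47 ± 0.10), and EPF2, a stomatal peptide (-0.73 ± 0.24), whose call was lost with the clock index and without Sml-D library 1 or 3, C24XLer library C or LerXC24 library A. Of 4 phloem markers 0 were called by edgeR's quasi-likelihood test (2 at an unadjusted p under 0.05, median 0.05) and 0 by DESeq2, and edgeR called 0 with the clock index and 0 without LerXC24 libraries B and C (1 unadjusted in each), with sums of 312 to 407 CPM in Sml-D and 306 to 347 CPM in the F1. The part of tissue make-up in the results above was not tested.

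The comparison with each hybrid gave different numbers of calls. Sml-D differed from C24XLer at 4098 genes (14.0%), with 1806 higher and 2292 lower, and from LerXC24 at 9085 (31.0%), with 4228 higher and 4857 lower. Both comparisons share the 3 Sml-D libraries. C24XLer and LerXC24, which carry the same nuclear genome in reciprocal crosses, differed at 1438 genes (4.91%), with 686 higher and 752 lower in C24XLer. That count was 0 in edgeR's quasi-likelihood test when only the 2 hybrids were fitted (3917 genes at an unadjusted p under 0.05), 0 with the clock index (901 genes) and 0 without LerXC24 library C (3284 genes), while DESeq2 called 2144. It was 17 without C24XLer library A, 21 without C24XLer library B, 3 without LerXC24 library B and 2944 without LerXC24 library A. The count against C24XLer fell to 2276 without C24XLer library B and to 2727 without Sml-D library 1, and that against LerXC24 to 5952 without LerXC24 library C.

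Side by side, the log2 differences of FLC were -3.73 against C24XLer and -3.74 against LerXC24, those of SEP3 2.98 against C24XLer and 3.19 against LerXC24, and those of AOP2 -6.78 against C24XLer and -6.35 against LerXC24. SDI1 stood at 2.14 against C24XLer and 3.45 against LerXC24, and PRR9 at 0.85 against C24XLer, where it was not called, and 2.31 against LerXC24. DIN10, one of the genes called between the hybrids, was at -1.19 against C24XLer (not called) and -3.45 against LerXC24. AT3G28220, a TRAF-like protein, had 3.3, 8.85 and 14.8 CPM in Sml-D, against 244, 131 and 30.0 CPM in C24XLer and 39.4, 29.1 and 16.7 CPM in LerXC24, and was -3.91 against C24XLer and -1.66 against LerXC24, where it was not called (adjusted p = 0.077). AT4G33980, of no described function, had 2.69, 2.04 and 2.83 CPM in Sml-D and 7.94 to 26.1 CPM in the F1 (-2.44 ± 0.30), and AT3G19850, of the NPH3 family of phototropism proteins, had 10.8 to 14.5 CPM in Sml-D and 27.0 to 72.9 CPM in the F1 (-1.71 ± 0.21). Both were called in every alternative tried, with no call between the parents.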

How the data were processed

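Counts of RNA-seq reads were analysed from 30 libraries of 10 lines, of which the 3 of Sml-D and the 6 of the F1 hybrids are compared here. The deposited table holds raw counts per gene model, per the file headers, and the deposited depth table holds counts of reads per library; totals are 45231116 to 52535852 reads in the 9 libraries, and gene counts summed to 50899595 to 59836794, more than the reads accepted. TAIR10, FastQC and DESeq are named in the submitters' processing notes. The aligner, the counter and whether strand was used are not stated in the labels or headers, so antisense and overlapping genes (7139 of 33498) are uncertain. Symbols and positions came from TAIR10.1 annotation, with 32742 models matched.

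Counts were fitted in R 4.3.3 with edgeR 4.0.16 (filterByExpr with a minimum count of 10, TMM, 1 quasi-likelihood fit of all 30 libraries with 1 coefficient per line), and calls were made at a Benjamini-Hochberg adjusted p under 0.05 over 29268 genes. Standard errors are the absolute log2 difference divided by the square root of F. How far replicates are separate plants is not stated for every line, and p-values then reflect only the spread among the libraries, which may be technical. Alternatives were DESeq2 1.42.0, RLE size factors, no filter, the clock index, fewer lines, the F1 as 1 group, no overlapping genes, a replicate block and each library left out. The fits without LerXC24 libraries B and C, the fit of the 12 parental and F1 libraries, and the CCGAC search were added after seeing the data. Motif shares were planned for all called genes, and those of genes at least 2-fold apart were not in that plan. The letters A to C pair nothing by the labels and Sml-D libraries carry no letter, so no block was used in the main fit. Same-letter deviations correlated at -0.135 to 0.438 over 18 pairs, 9 of them above 0.1. These values alone give no ground for leaving the letters out among the lettered lines. The code was tested on simulated data.

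The gene lists (450 genes) and members were chosen with earlier results of these data known. The text names 7 fixed genes, the 10 largest rises and falls and the 8 each way among genes not called between the parents (called, at least 10 CPM on average, libraries apart, overlapping no counted gene), and up to 4 called genes per list. Other genes named (FT, SVP, MAF2, MAF3, MAF4, MAF5, KIN2, CBF2, CBF3, RD29A, APR1, APR2, APR3) were chosen after their values were seen.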

Additional observations from a re-analysis of the deposited data

Results flagged for a closer look

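By edgeR's quasi-likelihood test at an adjusted p under 0.05, C24XLer and LerXC24 were called apart at 1438 of all tested genes (4.91%). That count was 0 when only the 2 hybrids were fitted (3917 at an unadjusted p under 0.05), and 0 to 2944 with 1 library left out. In the fit of all 30 libraries, 18 of the 127 named genes were so called. For those 18 the difference of Sml-D from the F1 was not the same for both hybrids in that fit. The log2 difference of C24XLer over LerXC24 was GBSS1 1.01, PAP1 1.89, BBX18 1.66, CYP79B3 1.77, RVE8 1.09, AOP3 0.95 and LNK1 1.25 for genes higher in C24XLer. The same difference was XTH33 -1.93, DYL1 -1.37, XTH4 -1.37, PAR1 -1.88, AT3G19850 -0.98, BR6OX2 -1.27, LUX -0.77, XTH24 -1.44, AT4G33980 -1.13, CPD -0.71 and DIN10 -2.26 for genes higher in LerXC24. The clock index was highest in LerXC24 libraries B and C, at -0.53 and -0.16. With the clock index as a covariate 0 genes were called between the hybrids (901 at an unadjusted p under 0.05). The part of harvest time or of any other difference between those libraries was not tested.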

How the results depend on the processing

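Under DESeq2 8572 genes were called between Sml-D and the F1, and under the RLE size factors, no filter, the compared lines only, the F1 as 1 group and no overlapping genes 8375, 8190, 6144, 7862 and 6088, against 8390. The clock index gave 1946 (741 higher, 1205 lower), 518 against LerXC24 and 0 between the hybrids, and leaving out LerXC24 libraries B and C gave 4467 (2028 higher, 2439 lower). With only the compared lines, 1835 genes were called against C24XLer and 0 between the hybrids. Leaving out 1 library in turn gave 6133 to 9052 in all, 2931 to 4350 higher, 3194 to 4702 lower, 2276 to 4568 against C24XLer, 5952 to 9110 against LerXC24, 0 to 2944 between the hybrids and 5829 to 7187 between the parents. No paired analysis was possible because Sml-D libraries are numbered and F1 libraries lettered; for the lettered lines the replicate block gave 6932 calls between the parents and 1423 between the hybrids, where the same 12 libraries without it gave 0 between the hybrids (4786 at an unadjusted p under 0.05). The share nearer C24 was 49.4% and 48.1% at a parental log2 difference of at least 1 and 3. Of 127 named genes, the clock index left 47 on their side of the threshold, ended the calls of 68 and turned the direction of 12: XTH33 0.14, XTH4 0.24, XTH24 0.30, YUC8 0.14, RHD6 -0.0896, ICS1 -0.0688, PRR9 -0.19, RVE8 -0.29, LNK1 -0.0864, PIF8 -0.00329, BAM3 -0.35 and MYB29 -0.025. ICS1 was not called without the index either. None of these 12 genes was called in the new direction (adjusted p of 0.29 to 0.99 in edgeR's quasi-likelihood test). The other alternatives turned none of these; DESeq2 lost 2 calls, leaving out LerXC24 libraries B and C 38, and leaving out 1 library 7 to 24. The cause of these changes was not tested.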
